A study of Homo sapiens with 6 samples.

Results

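The array of cells given TGFb was set directly against the array of cells given IL6, 2 of the 6 arrays of a screen of inflammatory stimuli in MDA-MB-231, a human breast cancer cell line, on a long non-coding RNA array. Both cultures had been treated for 24 h, and the other 4 arrays held cells given PBS (the control), LPS, IL1b or TNFa for the same time. Each condition was represented by 1 array of Cy3-labelled material from total RNA, and the labels as given here state no dose. With 1 array a side nothing below was tested, and the number of arrays sets the limit on precision. The members were the probes measured on both arrays. A probe counted as measured when the scanner software flagged it as well above background and its signal exceeded the 95th percentile of the Negative control spots (spots meant to stay dark) on each of the 2 arrays. Of 60596 probes used, 29295 met this rule, and 435 of them were among the 1365 used probes that the files pair with a name. Levels are log2 intensities after quantile normalization of all 6 arrays, and differences are TGFb minus IL6 on that scale.

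TGFb signals through receptor serine/threonine kinases and SMAD proteins and is known in this kind of cell for driving mesenchymal traits and invasion. IL6 signals through gp130, JAK kinases and STAT3. HOX genes encode homeodomain transcription factors that set positional identity, lie in 4 clusters named A to D, and are interleaved with many non-coding transcripts. Ultraconserved regions, written uc. with a number and a strand sign, are genomic segments identical between human and rodents, some of which are transcribed. The named probes covered these classes, 20 mRNAs spotted repeatedly, and a small set of other transcripts. None of 20 SMAD target genes, 18 STAT3 target genes or 13 marker genes of the cell line was among the names in the files, so these were not analysed here, and the cell line could not be checked against its markers.

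Both arrays carried signal on spots that should be dark. The share of Negative control spots well above background was 12.4% with IL6 and 8.18% with TGFb, beside 0% with PBS and at most 2.08% on the remaining arrays. The 95th percentile of these spots lay at a raw signal of 46.3 with IL6 and 51.9 with TGFb, beside 9.45 to 24.6 on the other 4 arrays. Target probes were brighter too, with a median raw signal of 60.4 with IL6 and 58.8 with TGFb. It was 13.4 with PBS, 22.9 with LPS and 28.4 with TNFa, while IL1b came closer, at 47.5. On the normalized scale the same percentile was 4.65 with IL6 and 4.87 with TGFb, beside 4.20 to 4.63 on the other 4 arrays. Adding this limit to the background flag lowered the number of target probes measured from 41418 to 33022 with IL6 and from 34118 to 31625 with TGFb. It left the number unchanged on the LPS, IL1b and TNFa arrays and took away 1 probe with PBS. After normalization the lowest measured level was 4.65 with IL6 and 4.87 with TGFb, and no measured probe lay below these values.

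**Figure D1:**
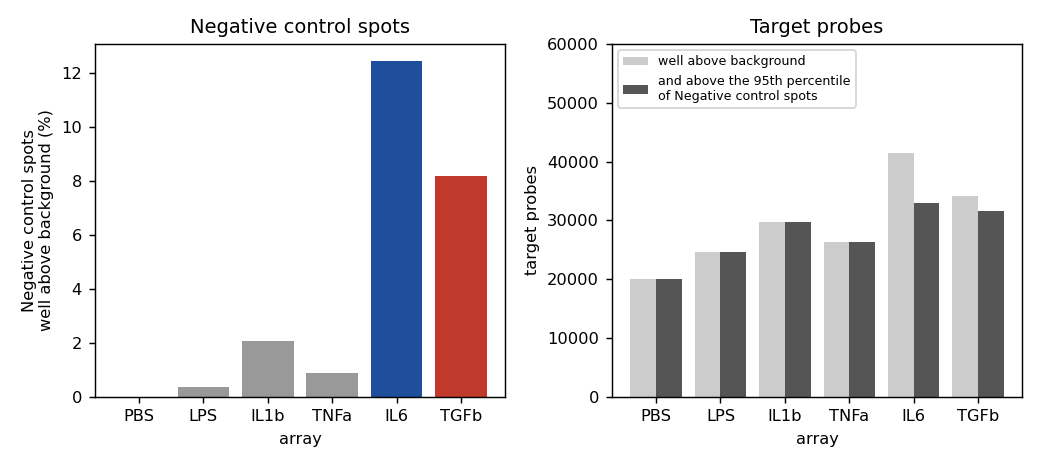
The left panel plots the share of Negative control spots well above background on each array, 12.4% with IL6 and 8.18% with TGFb. The right panel plots the number of target probes well above background (light) and also above the 95th percentile of Negative control spots (dark), where IL6 goes from 41418 to 33022 and TGFb from 34118 to 31625.

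The TGFb and IL6 arrays were close to each other over these probes. The robust SD of the difference was 0.42, with a median of -0.06. For IL6 or TGFb against any of PBS, LPS, IL1b or TNFa the robust SD ran from 0.95 to 1.11 over the same probes, while it lay between 0.29 and 0.36 among LPS, IL1b and TNFa and between 0.79 and 0.95 for PBS against these 3. These probes were chosen for being measured on the TGFb and IL6 arrays, and 18853 of them were well above background on every array. The rest could lie at background on another array, which can change the spread of any pair with that array. The spreads were not computed over the 18853 alone, so they cannot rank how close the pairs of arrays were. At least 2-fold higher with TGFb were 1572 probes, or 5.37% of the 29295, and 784, or 2.68%, were at least 2-fold lower. The share at least 2-fold apart was 10.8% at mean levels of 6 to 7 and 1.97% above 12. At mean levels up to 6 the higher probes outnumbered the lower by 355 to 84. At levels of 6 to 7 the numbers were 450 and 175, and above 12 they were 32 and 30. With the 99th percentile of the Negative control spots as the limit, 607 were higher and 434 lower among 19209 probes, so that 58.3% of the probes past 2-fold were higher, beside 66.7% with the 95th percentile.

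**Figure D2:**
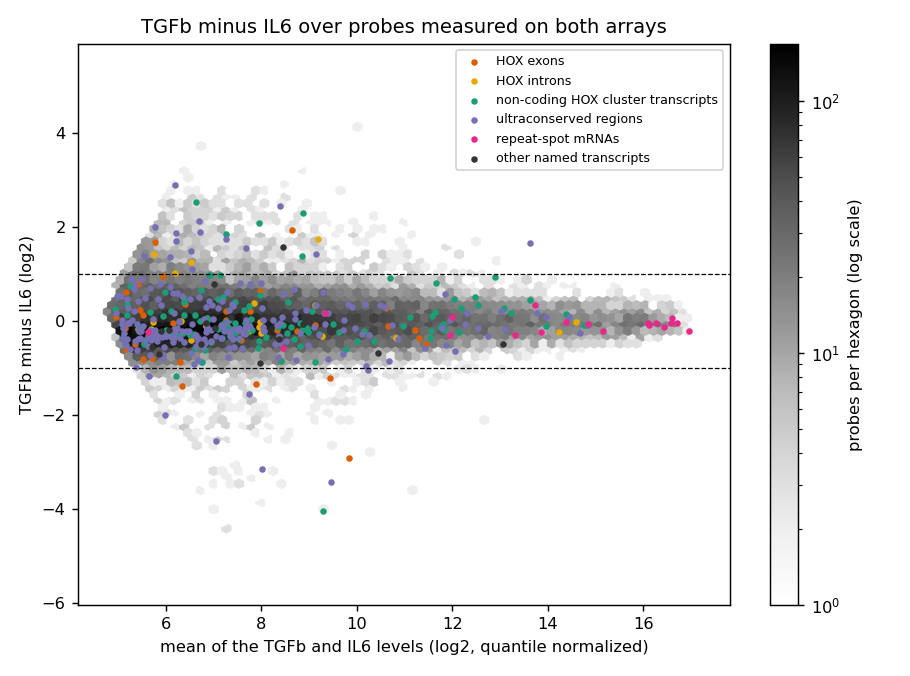
The difference TGFb minus IL6 (log2) is plotted against the mean of the 2 levels (log2) for the 29295 probes measured on both arrays, in grey by number of probes, with the 435 named probes as coloured points and dashed lines at 2-fold. The cloud is centred near -0.06 and narrows above a level of 12, and its slanted left edge is the limit on measured levels.

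Among the named probes, 27 were at least 2-fold higher with TGFb and 13 at least 2-fold lower, shares of 6.21% and 2.99% of 435, close to the 5.37% and 2.68% over all measured probes. The largest differences with TGFb higher were in uc.150+, nc-HOXA2-60, uc.88- and nc-HOXB4-166, and with IL6 higher in nc-HOXA13-100, uc.293-, uc.204- and HOXB2 exon 1. Of the 40 named probes at least 2-fold apart, 17 were of the HOX classes, 22 were ultraconserved regions and 1 was the transcript ENST00000523627. The 17 include PRAC1 exon 1 and an exon probe not matched to a gene symbol. No mRNA with repeat spots was among the 40. By the stricter limit of the 99th percentile of Negative control spots, 10 of the 27 and 8 of the 13 were still counted as measured on both arrays.

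**Figure D3:**
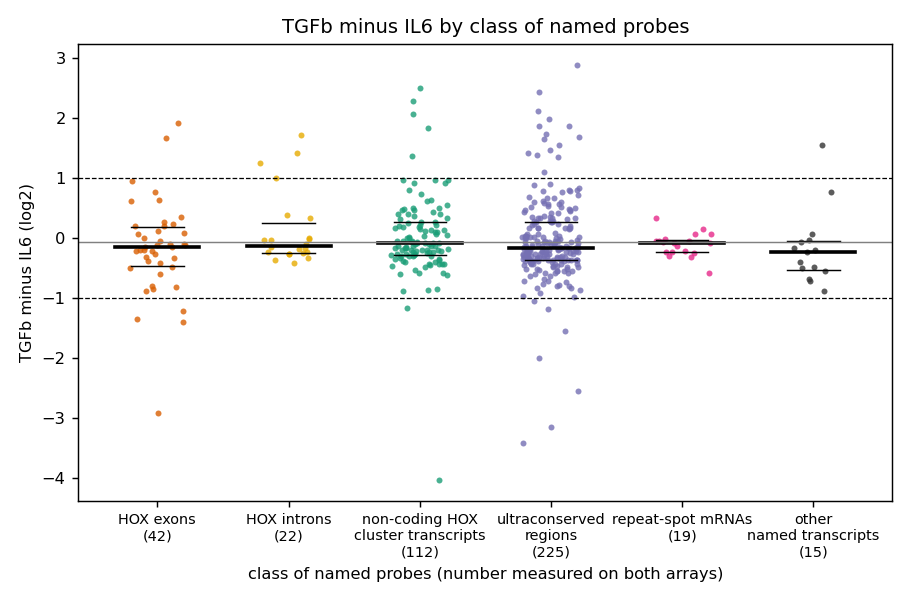
Each point is the difference TGFb minus IL6 (log2) of a named probe measured on both arrays, by class with the number of probes, thick bars for class medians, thin bars for quartiles, the grey line for the median over all measured probes and dashed lines at 2-fold. Class medians lie between -0.22 and -0.08, and the points beyond 2-fold belong to HOX cluster and ultraconserved probes and to ENST00000523627.

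Protein-coding HOX genes were read through exon and intron probes. There were 93 exon and 53 intron probes, 4 of each not matched to a HOX gene, and 42 and 22 were measured on both arrays. Their medians were -0.15 and -0.12, beside -0.06 over all measured probes. Among the 42 exon probes 2 were at least 2-fold higher with TGFb and 4 lower, or 4.76% and 9.52%. Of these, 1 higher and 1 lower were not matched to a HOX gene. Among the 22 intron probes 4 were higher and 0 lower, or 18.2% and 0%. The shares over all measured probes were 5.37% and 2.68%. The accessions of 63 of 65 transcripts, HOX and other, were matched to a symbol in RefSeq, assembly GRCh38.p14. Positions are not printed, because the sources used here name no build for the probes.

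Exon probes of HOXB2 and HOXB3, neighbours in the B cluster whose products pattern the hindbrain, were lower with TGFb than with IL6. HOXB2 exon 1 lay at 8.37 with TGFb and 11.29 with IL6, and at 9.30 with PBS, 8.66 with LPS, 8.53 with IL1b and 8.70 with TNFa. The IL6 array alone was high, standing 1.99 above the next, while TGFb sat just below the other 4. The difference was -2.92, or 7.54-fold. No other exon or intron of HOXB2 was measured on both arrays, so this rests on 1 probe.

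HOXB3 showed the reverse arrangement, with the TGFb array low. Exon 2 lay at 8.82 with TGFb and 10.04 with IL6, and at 10.90 with PBS, 10.45 with LPS, 10.05 with IL1b and 10.79 with TNFa. Exon 4 lay at 5.64 with TGFb and 7.03 with IL6, and at 7.66 with PBS, 7.97 with LPS, 8.31 with IL1b and 7.59 with TNFa. In both exons TGFb was the lowest array, with differences from IL6 of -1.22 and -1.39. The introns of the same gene did not share this: intron 2 differed by -0.23 and intron 3 by -0.22. Each of the 2 introns was instead highest on IL6 and TGFb, intron 2 at 14.35 and 14.12 beside 12.83 to 13.49 on the other 4 arrays.

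The D cluster, whose genes pattern limbs and trunk, held 3 of the 4 introns that were at least 2-fold higher with TGFb. HOXD4 intron 1 lay at 5.04 with IL6 and 6.47 with TGFb and was not well above background on any of the other 4 arrays, where it read 2.94 to 4.34. HOXD13 intron 1 lay at 7.15 with TGFb and 5.89 with IL6, at 5.96 to 6.31 with LPS, IL1b and TNFa, and at 5.47 with PBS, which was not well above background. HOXD3 intron 2 lay at 5.68 with IL6 and 6.69 with TGFb, and at 5.28 to 5.61 on the others. The TGFb array was the highest in all 3 introns, by 1.42, 1.26 and 1.01 over IL6. All 3 are dim, and none passed the 99th percentile limit. Among the named probes measured, HOXD3 intron 2 is the one just inside 2-fold on the higher side. It fell under 2-fold when arrays were aligned at the 75th percentile over all probes, and with cyclic loess or quantile normalization of the 2 arrays alone.

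Exons of these D cluster genes differed less. HOXD4 exon 2 differed by 0.08, HOXD13 exon 1 by -0.26 and HOXD3 exon 3 by -0.20. HOXD1 had both exons higher with TGFb short of 2-fold, exon 1 by 0.96 and exon 2 by 0.63, while its intron 1 differed by -0.26. HOXD8 exon 1, at 8.84 with IL6 and 7.99 with TGFb, differed by -0.86. Over all D cluster probes, non-coding ones included, 3 of 39 measured were at least 2-fold higher and 0 lower, with a median of -0.04. The shares over all measured probes were 5.37% higher and 2.68% lower.

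The C and A clusters held 1 exon or intron probe each past 2-fold, an exon for C and an intron for A. HOXC8 exon 1 lay at 9.61 with TGFb and 7.68 with IL6, and at 8.44 with PBS, 8.08 with LPS, 7.91 with IL1b and 7.90 with TNFa. TGFb was highest and IL6 lowest, and the difference was 1.92, or 3.79-fold. HOXC8 exon 2 went with it in sign only, at 0.24, with 5.34 and 5.58 on the 2 arrays and 7.06 to 7.79 on the rest. HOXA13 intron 2 lay at 10.06 with TGFb and 8.33 with IL6, and at 9.45 with PBS, 8.55 with LPS, 8.49 with IL1b and 8.29 with TNFa. Here IL6 lay among LPS, IL1b and TNFa, PBS came next, and TGFb was 1.73 above IL6.

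The remaining exon or intron probes past 2-fold were PRAC1 exon 1 and exon 2 of NM_153632, an accession that was not matched to a symbol. PRAC1, a small gene between HOXB9 and HOXB13, read 4.93 with IL6 and 6.61 with TGFb, a difference of 1.68, and 5.43 to 5.96 on the other 4 arrays. NM_153632 exon 2 read 8.57 with IL6, 7.22 with TGFb and 8.31 with PBS, a difference of -1.35. On this probe LPS, IL1b and TNFa lay with TGFb, at 7.14 to 7.43.

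Probes of the same HOX gene, exons and introns alike, could be set side by side. Among 49 pairs of measured probes within 17 genes, 7 pairs differed from each other by at least 1, and 20 pairs had differences of opposite sign. The median gap within a pair was 0.33, beside a robust SD of 0.42 for single differences over all measured probes. Gaps between unrelated probes were not computed. The widest gap within a gene was in HOXC8, with 1.69 between its 2 exons, followed by HOXD13 at 1.52 and HOXD4 at 1.34 between exon and intron. At the other end, HOXB7 intron 2, HOXB9 exon 2 and HOXC4 intron 3 differed between TGFb and IL6 by 0.0061, 0.0076 and -0.02.

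Probes for non-coding RNAs of the HOX clusters, each named after a HOX gene, were measured on both arrays in 112 of 212 cases. Their median was -0.09, and 5 were at least 2-fold higher with TGFb and 2 lower. These shares of 4.46% and 1.79% lay near the 5.37% and 2.68% over all measured probes. The probe nc-HOXA13-100 had the largest difference of any named probe. It lay at 7.28 with TGFb and 11.31 with IL6, and at 9.58 with PBS, 7.79 with LPS, 9.09 with IL1b and 9.80 with TNFa. IL6 was highest and TGFb lowest, 4.03 apart on the log2 scale, or 16.3-fold, and LPS lay close to TGFb. Other transcripts named for HOXA13 did not follow: nc-HOXA13-97 differed by -0.42 and nc-HOXA13-98 by -0.20.

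In the 5 transcripts at least 2-fold higher with TGFb, IL6 was lowest and PBS lay next to TGFb. Over all 1572 probes at least 2-fold higher with TGFb, IL6 was lowest in 986 and PBS lay nearer TGFb than IL6 in 49.2%. Whether the arrangement is particular to these transcripts was not tested. For nc-HOXB4-166 the levels were 10.02 with TGFb and 7.72 with IL6, beside 9.78 with PBS, 8.88 with LPS, 8.69 with IL1b and 8.75 with TNFa, a difference of 2.29. For nc-HOXC6-247 they were 8.98 with TGFb and 6.91 with IL6, beside 8.63 with PBS, 7.72 with LPS, 7.73 with IL1b and 7.69 with TNFa, a difference of 2.08. For nc-HOXA2-60 they were 7.90 with TGFb and 5.38 with IL6, beside 7.30 with PBS, 6.39 with LPS, 6.57 with IL1b and 6.78 with TNFa, a difference of 2.51. In each of these 3, TGFb exceeded PBS by less than it exceeded LPS, IL1b or TNFa. The same order held for nc-HOXC6-246, with 7.60 with PBS, 6.34 with IL6 and 8.18 with TGFb, and for nc-HOXB9-201, with 9.29, 8.16 and 9.54. The mean over all measured probes named for HOXB9 was -0.12, against the sign of nc-HOXB9-201.

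Several transcripts lay just short of 2-fold in the same direction, among them nc-HOXA4-65 at 0.98, nc-HOXC11-108 and nc-HOXC10-129 at 0.97, nc-HOXB1-156 at 0.93 and nc-HOXD4-34 at 0.92. Among them nc-HOXB1-156 read 12.42 with IL6 and 13.35 with TGFb. In the other direction nc-HOXC10-128 was lower with TGFb by 1.17 on the log2 scale, with 6.80 with IL6 and 5.63 with TGFb. It fell short of 2-fold when arrays were aligned at the 75th percentile over the probes that every array measured well above background. The transcripts nc-HOXC12-104, nc-HOXD4-25 and nc-HOXC10-118 differed by -0.0028, 0.0033 and 0.02.

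Of 961 ultraconserved probes used, 225 were measured on both arrays. Their median difference was -0.16, with 15 at least 2-fold higher with TGFb and 7 lower. These shares of 6.67% and 3.11% lay near the 5.37% and 2.68% over all measured probes. By strand, 7 plus-strand probes of 109 were higher and 1 lower, and 8 minus-strand probes of 116 were higher and 6 lower. Of the 22 past 2-fold, 14 were well above background on every array.

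The ultraconserved probes lower with TGFb were led by uc.293- and uc.204-. On uc.293- the levels were 7.75 with TGFb and 11.16 with IL6, beside 9.38 with PBS, 8.31 with LPS, 8.75 with IL1b and 9.36 with TNFa. On uc.204- they were 6.44 with TGFb and 9.59 with IL6, beside 7.51 with PBS, 7.28 with LPS, 6.90 with IL1b and 8.42 with TNFa. Both had IL6 highest and TGFb lowest, as nc-HOXA13-100 did, with differences of -3.41 and -3.16. On uc.46+ IL6 lay at 8.33 and TGFb at 5.79, a difference of -2.54, with the other 4 arrays within 7.18 to 7.50. On uc.163- both arrays were below the others, which read 7.72 to 8.65, and TGFb at 4.98 lay 2.00 below IL6 at 6.98.

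Others were lower with TGFb from a different base. On uc.182- IL6 read 8.52 and TGFb 6.97, while none of the other 4 arrays was well above background, and the difference was -1.54. The probe uc.425-, also measured on these 2 arrays alone, differed by -1.18. The probe uc.268- lay at 9.72 with TGFb and 10.76 with IL6, and at 9.60 with PBS, 11.16 with LPS, 11.14 with IL1b and 10.88 with TNFa. There the TGFb array stayed near PBS and the other stimuli stood above it, with -1.04 between TGFb and IL6. Both uc.425- and uc.268- fell short of 2-fold under that same alignment, and uc.268- also with cyclic loess or quantile normalization of the 2 arrays alone.

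Of the ultraconserved probes higher with TGFb, uc.88-, uc.162-, uc.246- and uc.332- also passed the 99th percentile limit. On uc.88- the levels were 9.61 with TGFb and 7.16 with IL6, beside 7.99 with PBS, 7.62 with LPS, 7.65 with IL1b and 7.67 with TNFa, a difference of 2.44 or 5.44-fold. On uc.162- they were 14.45 with TGFb and 12.80 with IL6, beside 13.25 with PBS, 12.93 with LPS, 12.41 with IL1b and 12.96 with TNFa, a difference of 1.65. In these and in uc.332- (1.55) and uc.246- (1.41) TGFb was the highest array, and IL6 was nearer than TGFb to the median of the other 4. In uc.150+ the reverse held: IL6 at 4.74 lay below the others, which read 6.32 to 7.25, and TGFb at 7.63 lay just above them, 2.89 from IL6. On uc.85+ IL6 read 4.78 and TGFb 6.77, within the 6.42 to 8.01 of the other 4 arrays. The remaining ones were uc.123+ (2.13), uc.456+ (1.88), uc.178+ (1.87), uc.135- (1.74), uc.186- (1.69), uc.294+ (1.48), uc.298- (1.39), uc.407+ (1.35) and uc.240- (1.10).

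The plus and minus probes of a region could be set side by side for 34 regions. In 9 of them the 2 strands differed from each other by at least 1, and in 13 the differences had opposite signs, with a median gap of 0.40. The robust SD of single differences over all measured probes was 0.42. Gaps between unrelated probes were not computed, so these gaps cannot be called particular to strand. The widest gap was in uc.293, where the plus strand differed by 0.07 and the minus strand by -3.41. In uc.46 the minus strand, at 14.88 with IL6 and 14.80 with TGFb, differed by -0.08 while the plus strand differed by -2.54. In uc.456 the plus strand was higher by 1.88 and the minus strand differed by -0.32. Further regions with a gap of at least 1 were uc.246, uc.298, uc.174, uc.85, uc.419 and uc.48.

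**Figure D4:**
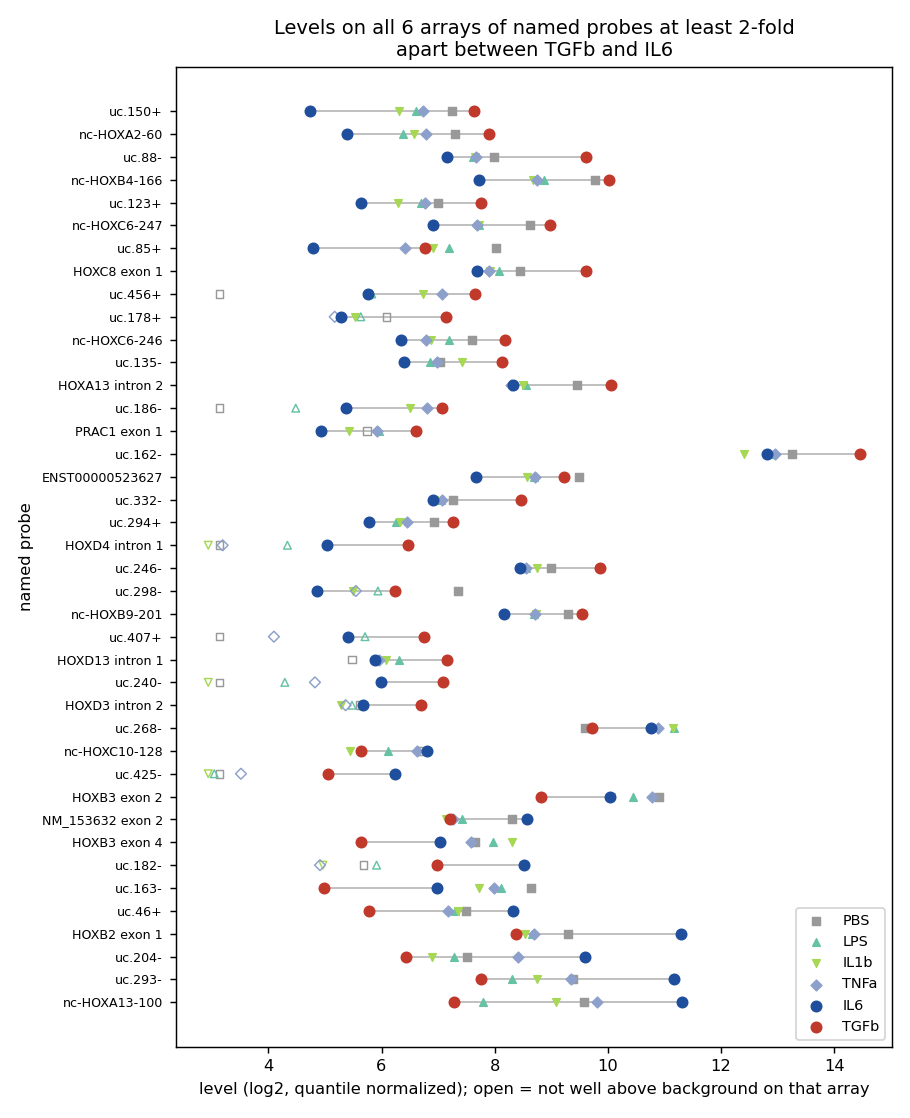
Levels (log2, quantile normalized) on all 6 arrays are plotted for the 40 named probes at least 2-fold apart between TGFb (red circles) and IL6 (blue circles), ordered by the difference, with open symbols for levels that were not well above background. In 24 of the 27 probes higher with TGFb, TGFb is the highest of the 6 arrays and in 17 IL6 is the lowest. In 9 of the 13 lower ones IL6 is the highest and in 8 TGFb is the lowest. Over all 1572 higher probes TGFb is the highest in 1159 and IL6 the lowest in 986. Over all 784 lower ones IL6 is the highest in 337 and TGFb the lowest in 599.

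Which of the 2 arrays departed from the rest varied from probe to probe. Of the 27 named probes higher with TGFb, the median of the other 4 arrays lay nearer IL6 in 20 and nearer TGFb in 7. PBS taken alone lay nearer TGFb in 12 of the 27, beside 7 for LPS, 6 for IL1b and 8 for TNFa. Over all 1572 higher probes these shares were 49.2% for PBS, 39.4% for LPS, 44.1% for IL1b and 46.1% for TNFa, so PBS at 44.4% of the named ones was near its share over all probes. TGFb was the highest array in 1159 of the 1572 and IL6 the lowest in 986. Of the 784 lower ones, IL6 was the highest in 337 and TGFb the lowest in 599. Of these 1572 and 784 probes, 945 and 597 were well above background on every array. Over all 1572 higher probes the median of the other 4 lay nearer TGFb in 43.1%, and over all 784 lower ones in 36.2%, beside 6 of the 13 named lower ones.

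A stricter count asked for an array at least 2-fold off each of the other 5. It ran over the 29295 probes measured with TGFb and IL6, of which 18853 were well above background on every array. A probe at background on the other 4 arrays could thus stand above them, as HOXD4 intron 1, uc.182- and uc.425- did. TGFb stood above all others in 331 probes, or 1.13%, and below them in 322, or 1.1%. IL6 stood above all others in 197, or 0.672%, and below them in 201, or 0.686%. Named probes with TGFb above were HOXC8 exon 1, HOXD3 intron 2, HOXD4 intron 1, uc.88-, uc.162-, uc.178+, uc.240-, uc.332- and uc.407+, and those with TGFb below were HOXB3 exons 2 and 4, uc.46+ and uc.163-. With IL6 above were HOXB2 exon 1, nc-HOXA13-100, uc.182-, uc.204-, uc.293- and uc.425-, and with IL6 below nc-HOXA2-60, uc.85+ and uc.150+. These 22 of 435 named probes are described by counts alone, since each array is single.

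The mRNAs with repeat spots differed little. Of 20, 19 were measured on both arrays, with a median of -0.08, and none reached 2-fold. The 17 described here ranged from -0.31 to 0.34. GRM4, a glutamate receptor, was the 1 not measured. With up to 10 spots per array each difference has a standard error over spots, which covers spot noise within the arrays and says nothing of a second culture.

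EIF3D, a translation initiation factor subunit, differed by -0.31 ± 0.056 (SE over spots), PRMT1, an arginine methyltransferase, by -0.29 ± 0.058, and the histone gene H3-3A by -0.24 ± 0.046. For PRMT1 the level was 12.09 with IL6 and 11.80 with TGFb, beside 11.27 with PBS and 12.36 to 12.62 with LPS, IL1b and TNFa. These 3 kept their sign under each alternative scaling. ODC1, the first enzyme of polyamine synthesis, had the largest difference the other way, at 0.34 ± 0.023, with 13.55 with IL6 and 13.90 with TGFb. Its sign too was kept, with a range of 0.21 to 0.34.

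Of the lists set for these mRNAs, 3 of 10 actin and motor genes, 3 of 12 ribosome and translation genes, 3 of 7 glycolysis and polyamine genes and both of the histone and methyltransferase genes were on the array by name, and all of these were measured. ACTB and ACTG1, the cytoplasmic actins, differed by -0.06 ± 0.031 and -0.04 ± 0.054, and PFN1, an actin-binding protein, by -0.21 ± 0.023. All 3 turned positive under at least 1 other scaling, PFN1 reaching 0.13, so no direction can be given for actin mRNAs. The glycolytic mRNAs GAPDH and PGK1 differed by -0.04 ± 0.021 and 0.16 ± 0.074. Among ribosomal protein mRNAs RPS18 differed by 0.06 ± 0.059, RPLP1 by -0.13 ± 0.021 and RPL10, which missed the 99th percentile limit, by -0.23 ± 0.067. The signs of GAPDH and RPLP1 also turned under another scaling. RACK1, ARHGDIA, COX4I1 and MTX1 lay between -0.08 and 0.07, with the signs of RACK1 and MTX1 turning under another scaling, and DYNLL1, a dynein light chain, at -0.22 ± 0.069.

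**Figure D5:**
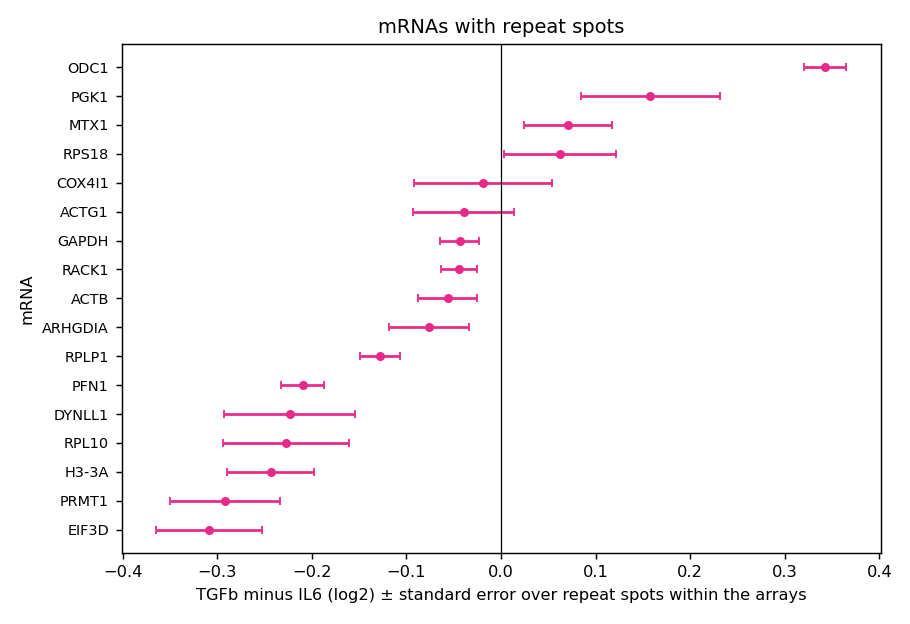
The difference TGFb minus IL6 (log2) is plotted for the 17 mRNAs with repeat spots described here, with bars for the standard error over spots within the arrays. EIF3D lies at -0.31 and ODC1 at 0.34, and the others lie between them.

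Of the 26 other named transcripts, 15 were measured on both arrays, with a median of -0.22. Below 0 were 12 of the 15, beside 16332 of all 29295 measured probes. The 1 of these transcripts past 2-fold was ENST00000523627. It lay at 9.23 with TGFb and 7.66 with IL6, and at 9.50 with PBS, 8.69 with LPS, 8.57 with IL1b and 8.71 with TNFa. Its difference of 1.56 had PBS just above TGFb and IL6 lowest. ENST00000521141, measured on the 2 arrays alone, differed by 0.77, while ENST00000519624 and ENST00000522960 differed by 0.08 and -0.16.

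RNAs of the NEAT1 and MALAT1 loci were lower with TGFb short of 2-fold. TncRNA, a NEAT1 transcript, read 12.80 with TGFb and 13.30 with IL6, beside 11.96 with PBS, 13.52 with LPS, 13.38 with IL1b and 13.31 with TNFa, a difference of -0.50. TGFb lay between PBS and the other stimuli. The tRNA-like mascRNA, cleaved from MALAT1, read 8.40 with IL6 and 7.52 with TGFb, a difference of -0.89, and 7.86 to 8.27 on the other 4 arrays. The probe named p53mRNA differed by -0.68, with 10.77 with IL6 and 10.09 with TGFb beside 9.93 with PBS and 10.50 to 11.11 on the rest. TncRNA, mascRNA and p53mRNA each kept their sign under every alternative scaling run.

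The other named transcripts also lay short of 2-fold. Air differed by -0.71 and was well above background on the TGFb and IL6 arrays only. Alpha250 differed by -0.55, LUST by -0.49, AY195961 by -0.39, the probe for PR antisense transcripts by -0.22, Zfhx2as by -0.19, DHFRupstreamtranscripts by -0.06 and AK023948 by -0.04. Of the 1365 named probes used, 72 were measured on the IL6 array alone, 57 on the TGFb array alone and 801 on neither. Over all 60596 probes used, these numbers were 3727, 2330 and 25244. Just outside 2-fold among named probes lay nc-HOXA4-65 at 0.98 on the higher side. On the lower side lay uc.146+ at -0.99 and uc.472- at -0.97. Just inside were 1.10 for uc.240- and -1.04 for uc.268-.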

How the data were processed

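The 6 arrays came 1 each from MDA-MB-231 cells given PBS, LPS, IL1b, TNFa, IL6 or TGFb, grouped by the treatment in the labels, and the labels do not say whether cultures were separate. The deposited intensity values are processed signals of 1-colour Agilent scanner software, per the file headers, while the labels describe a NimbleGen array; how background was removed is not given in the sources used here. The authors also deposited a table of log2 values, for which the submitters' processing notes name RMA. It was set against the quantile-normalized scanner values: median absolute differences were 0.000624 or less, and the largest were 1.2 (PBS) and 0.33 (IL6). Its column medians were 5.07, so it is on the log2 scale and not centred on genes.

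Spots with an outlier flag were left out, repeat spots were averaged on the log2 scale, and 60596 of 60639 target probes with a value on all 6 arrays were quantile normalized with limma 3.58.1 in R 4.3.3. A probe with repeat spots was well above background when most of its spots were. The rule and the lists were chosen with earlier results of these data known. Probes were named by class: up to 8 each way among those at least 2-fold apart, all mRNAs with repeat spots, all other transcripts, the 3 smallest differences, those next to the threshold, and pairs of one gene or region. The text gives more of the probes past 2-fold than this, chosen after their values were seen. Alternatives were 4 other scalings, the deposited table, 4 other filters, keeping outlier spots, thresholds of 1.5-fold and 3-fold and the mean per name. Of the mRNAs with repeat spots, 2 are not reported here. The counting was tested on simulated data with changes planted only in probes far above the Negative control limit, so changes in dimmer probes were not covered. The files give no probe sequences or positions, and the 59231 used probes with only a number are unnamed.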

Additional observations from a re-analysis of the deposited data

Results flagged for a closer look

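Some spots outside the target probes carried signal above the level of the PBS control array. The median raw signal of Negative control spots was 3.82 with IL6, 8.13 with TGFb and 8.70 with PBS. Each of these equals the lowest target signal on its array, so the medians cannot show whether the dimmer spots differed. Negative control spots were well above background in 12.4% of cases on the IL6 array and 8.18% on the TGFb array, and in 0% on the PBS array, once outlier spots were left out. Of 35 other control probes (spike-in and similar), 16 were at least 2-fold brighter in raw signal on the IL6 array than on the PBS array and 12 on the TGFb array, beside 4 with IL1b and 0 with LPS or TNFa. These raw signals were not normalized between arrays. The part of this signal in the differences of single probes was not tested.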

How the results depend on the processing

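The counts of 1572 higher and 784 lower probes moved by over 1.5 times with the filter and the threshold. They were 2773 higher of 32839 with the background flag alone, 607 higher and 434 lower of 19209 above the 99th percentile of Negative control spots, 945 higher of 18853 with the background flag required on every array (5.01% beside 5.37%), and 4747 higher and 2560 lower with no filter. The thresholds of 1.5-fold and 3-fold gave 3570 and 655 higher and 2563 and 370 lower. The 4 other scalings, the deposited table and the outlier spots kept the counts within 1.5 times, with 63.8% to 72.2% of calls higher over the scalings, beside 66.7%. The median of the other named transcripts went to -0.39 with that flag on every array, and that of ultraconserved regions to 0.0025 with no filter, where most added probes are at background. Of 34 named probes chosen by rule and past 2-fold, at most 3 fell short of it under any scaling and none changed sign. Averaging all measured probes of a name, non-coding ones included, turned HOXA13 intron 2 to -0.73 and nc-HOXB9-201 to -0.12, since each mean takes in probes that are lower with TGFb, nc-HOXA13-100 at -4.03 for HOXA13. No paired analysis was possible because each group has 1 array, and no array could be left out for the same reason.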

Other observations

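Some named probes were measured on 1 of the 2 arrays and not well above background on the other, so that their fold has a bound only, taken here against the higher of the probe's own value and the 95th percentile of Negative control spots on the dim array. There were 26 of them with TGFb and 44 with IL6, among 1365 named probes used. Over all 60596 probes used, the numbers were 795 with TGFb and 2300 with IL6. That limit was 4.65 with IL6 and 4.87 with TGFb. It was chosen after seeing the data, because the lowest levels called well above background, 3.26 and 4.48, lay below it; against those the bound of uc.458- would be 54.8-fold. The probes named here were also chosen after their values were seen. Against the percentile, bounds ran from 20.9-fold down to 1.17-fold with TGFb and from 8.02-fold down to 0.87-fold with IL6. A bound below 1-fold shows no difference, and each probe was counted as measured only on the array where it is high. On uc.458 the 2 strands went opposite ways: uc.458- read 9.04 with TGFb, at least 20.9-fold higher than with IL6, and was not well above background on any other array, while uc.458+ read 7.16 with IL6, at least 4.89-fold higher than with TGFb. The probe uc.12+ read 7.87 with IL6, at least 8.02-fold higher than with TGFb. HOXA7 exon 2 read 5.86 with TGFb, at least 2.31-fold higher than with IL6, and 5.23 to 5.52 on the other 4 arrays, of which 1 was well above background.

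Among probes with only a number, the largest differences exceeded those of the named probes. ASHG19A3A036394 was 40.5-fold higher with TGFb, at 10.83 beside 5.50 with IL6, and ASHG19A3A011673 39.5-fold higher, at 11.49 beside 6.19. ASHG19A3A018100 was 44.9-fold higher with IL6, at 10.37 beside 4.88 with TGFb, and ASHG19A3A028724 32.6-fold higher, at 10.19 beside 5.16. On each of these 4 probes the other 4 arrays lay between 6.04 and 8.20.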
